A study of Mus musculus with 6 samples.

Results

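The genes described are the 75 mitochondrial ribosomal protein genes with a symbol of Mrpl or Mrps and a number, 46 Mrpl genes of the large subunit and 29 Mrps genes of the small subunit, out of 18193 genes measured. They were chosen by symbol among probe sets that name exactly 1 gene, with Mrpl55 left out, and each gene is given by its probe set with the highest mean over all 6 arrays. Of 78 protein-coding genes with such a symbol in a mouse gene table, 76 had such a probe set, and Mrpl55 was left out of these. RNA from the hippocampus was measured on 6 Affymetrix mouse expression arrays, 1 array per mouse, on the log2 scale. In the duplication group were 3 mice with the genotype Dp(11)17/+, in which a segment of chromosome 11 is present in an extra copy on 1 homologue. The 3 mice of the wild-type group had the genotype +/+. All 6 mice were of the C57BL/6-Tyr c-Brd background, labelled male and 11 to 14 weeks of age, so that background, sex label and age range were shared by both groups. Potocki-Lupski syndrome, a human developmental disorder, is what the mice model according to the series title, and the comparison asks how expression in the brain differs in mice that carry the duplication.

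Mitochondria hold ribosomes of their own, which translate the few proteins encoded by mitochondrial DNA, all of them subunits of the respiratory chain and of ATP synthase. The ribosomal RNA of these ribosomes is made in the mitochondrion, whereas all of their proteins are encoded in the nucleus, made in the cytosol and imported. The large subunit joins amino acids and holds the tunnel through which the new chain leaves, and the small subunit reads the messenger RNA. Some of the proteins have relatives in bacterial ribosomes, and others are known only from mitochondria. Neurons draw most of their ATP from oxidative phosphorylation, and inherited defects of several of these proteins in humans cause disorders of the nervous system, heart or liver.

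Libraries differed in ways that genotype does not name, and the results below are therefore also given without single mice. Duplication mouse 1 had a log2 value of 9.13 for Xist, the RNA of the inactive X chromosome of females, against 3.06 to 3.69 in the other 5 mice, and its values for the Y-linked genes Eif2s3y and Kdm5d were 2.48 and 2.47 against ranges of 5.41 to 6.01 and 4.71 to 5.06. Its label of male is thus opposed by these 3 genes. Duplication mouse 3 lay 1.76 (log2 scale) above the wild-type mean over 12 striatal markers and 2.06 above it over 12 markers of thalamus and habenula. Its means over 9 markers of hippocampal pyramidal cells and 8 of dentate granule cells stood at -1.69 and -1.87 from the wild-type means. Duplication mouse 1 stood at 0.84 for the striatal and -0.70 and -0.90 for the hippocampal lists, and duplication mouse 2 at -0.06, 0.32 and 0.78. All 9 pyramidal markers and 5 of the 8 dentate markers averaged a log2 value of at least 6. As a check of the genotype labels, 26 of 31 measured genes listed for the duplicated segment were higher in duplication mice, with a median log2 fold change of 0.37. Numbers in the sample titles form separate ranges for the 2 genotypes. Litter and cohort are not among the labels and cannot be told apart from genotype. Hippocampus is missing from the organs named in the extraction protocol, and pools are mentioned for labelling although each sample names 1 individual.

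Promoter stretches of 6 members are shown because they hold cores for NRF1 and ETS factors, which more members carry than measured genes do (shares are given further on), and because 5 of the 6 belong to the members of smallest p described below. The sixth, of Mrpl32, was chosen after its matches were seen. The stretches are from RefSeq on GRCm38.p6, each 100 bases of the gene's own strand. All end at the base before an annotated start of transcription except that of Mrps18b, which covers the bases from 250 to 151 before it. Mrps16 has a further annotated start, and the start whose promoter window held a match was chosen. Capitals mark matches to GCGCATGCG, the core bound by NRF1 (nuclear respiratory factor 1), or to CCGGAAG, the core bound by ETS factors such as GABP, on either strand. Both factors are known as activators of nuclear genes for mitochondrial proteins.
Mrpl17 (chr7:105811088-105811187, minus strand): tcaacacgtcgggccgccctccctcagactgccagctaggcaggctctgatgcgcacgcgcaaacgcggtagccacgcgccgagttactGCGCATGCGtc
Mrpl22 (chr11:58171564-58171663, plus strand): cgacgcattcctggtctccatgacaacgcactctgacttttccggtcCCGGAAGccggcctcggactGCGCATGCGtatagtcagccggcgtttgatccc
Mrpl32 (chr13:14613038-14613137, minus strand): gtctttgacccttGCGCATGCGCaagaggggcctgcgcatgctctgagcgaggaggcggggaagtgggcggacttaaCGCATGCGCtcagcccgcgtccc
Mrps16 (chr14:20393491-20393590, minus strand): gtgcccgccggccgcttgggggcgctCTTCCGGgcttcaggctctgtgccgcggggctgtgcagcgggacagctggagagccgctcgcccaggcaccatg
Mrps18b (chr17:35916591-35916690, minus strand): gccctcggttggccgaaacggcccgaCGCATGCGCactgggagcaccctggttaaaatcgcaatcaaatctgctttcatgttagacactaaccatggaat
Mrps22 (chr9:98601680-98601779, minus strand): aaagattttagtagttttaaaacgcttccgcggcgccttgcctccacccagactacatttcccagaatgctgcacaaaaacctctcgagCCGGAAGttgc
The NRF1 core of Mrpl17 begins 11 bases before the start, that of Mrpl22 33 bases before it and that of Mrps18b 224 bases before it. Mrpl32 holds the core 3 times, at 23, 86 and 87 bases before its start, the last 2 being overlapping matches on opposite strands of 1 palindrome. The promoter windows of Mrpl17 and Mrps18b also held an ETS core, outside the stretches shown. Within the stretches shown, the ETS core lies 53 bases before the start in Mrpl22, 74 in Mrps16 and 11 in Mrps22. For Mrps16 this holds for the start shown, and the window of its other annotated start held neither core. That other start lies upstream, so that the whole stretch printed for Mrps16 is downstream of it.

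Mitochondrial ribosomal protein genes were lower in duplication mice in 70 of 75 cases, each by a small amount. The median log2 fold change of the duplication mice against wild type was -0.11, a change of -7.08%, with an interquartile range of -0.14 to -0.07 and a full range of -0.26 to 0.10. Among the 46 large subunit genes 44 were lower, with a median of -0.11, and among the 29 small subunit genes 26 were lower, with a median of -0.10. Over all 18193 genes the share below 0 was 58.3% and the median -0.02, and over the 7104 genes whose log2 values averaged at least 6 it was 59.1% and the median -0.03. That cut at 6, a floor for dim probe sets used throughout, was met by 72 of the 75 members. The 3 below it were Mrpl1, Mrpl33 and Mrps27.

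No member passed the test. In the limma fit over 45037 probe sets with Benjamini-Hochberg adjustment, 0.0% of probe sets had an adjusted p under 0.05, and the smallest adjusted p among the members was 0.994. At an unadjusted p under 0.05, 9 members were lower and 0 higher, 5 of the large and 4 of the small subunit. Of all genes 2.01% were lower at that threshold, and of genes at the floor or more 2.08%. In 20 members, 11 large and 9 small, each duplication mouse lay below each wild-type mouse, whereas 0 members showed the opposite order. Such an order, with every duplication mouse lower, was found in 5.59% of all genes and in 6.56% at the floor or more, and 2.7% of all genes had all duplication mice above. The 95% confidence interval of the fold change held 0 in 66 of the 75 members, and the median standard error (SE) of 0.09 was close in size to the median fold change. The median member therefore differed by about the error of its own measurement, and the counts above describe their common direction without a test of it. In RNA of a whole tissue, fewer cells that express these genes and less of their RNA per cell cannot be told apart.

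**Figure D1:**
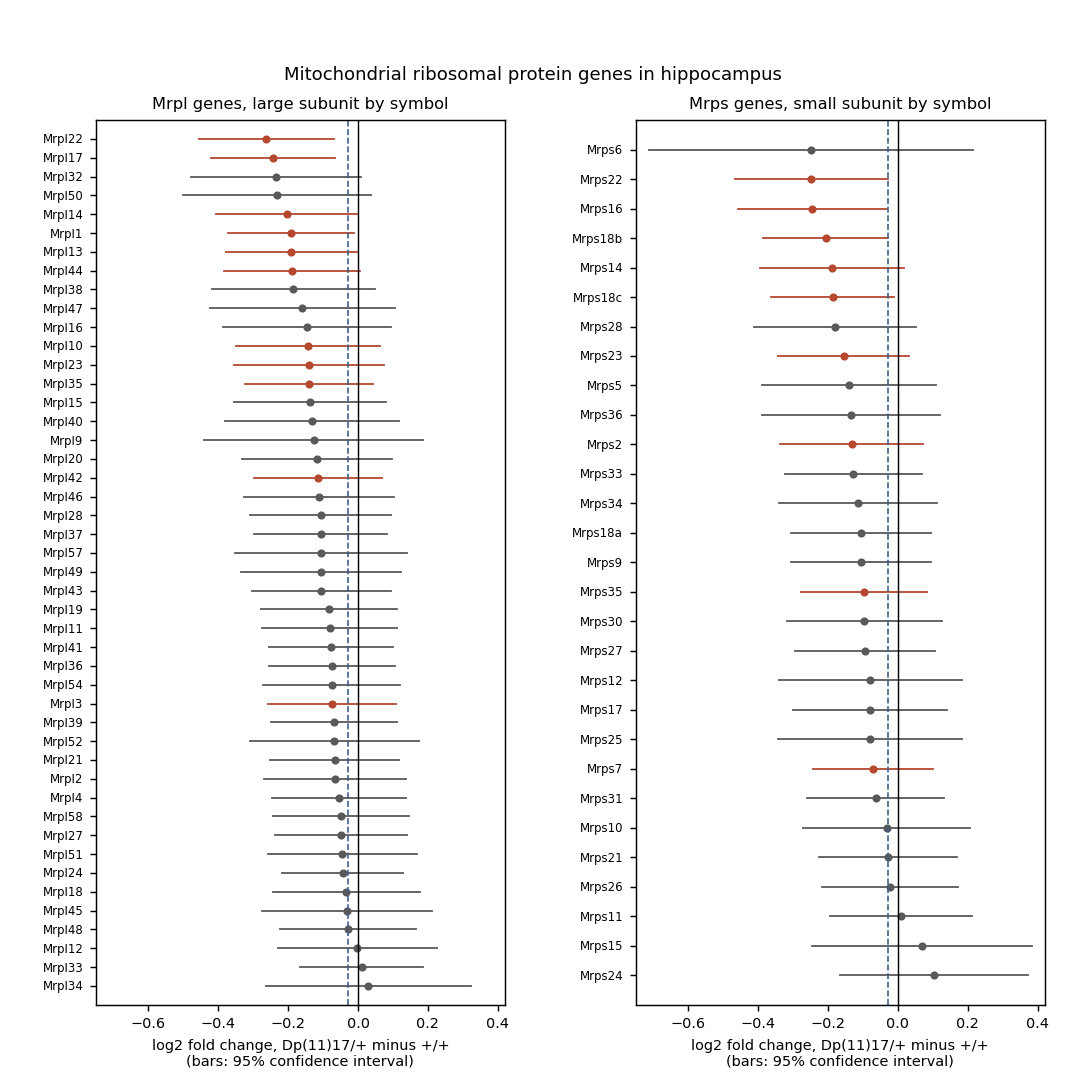
Log2 fold change of each member, duplication minus wild type, with its 95% confidence interval (bars), for Mrpl genes (left) and Mrps genes (right); red marks the 20 members in which each duplication mouse lay below each wild-type mouse, and the dashed line is the median of -0.03 over genes whose log2 values average at least 6. All but 5 points lie below 0, and 66 of the 75 bars cross 0.

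The shift was seen in each of the 3 duplication mice. The mean log2 value over the 75 members was 7.46, 7.48 and 7.49 in duplication mice 1, 2 and 3 and 7.55, 7.64 and 7.56 in wild-type mice 1, 2 and 3. Group means were 7.48 ± 0.02 (SD, n = 3) and 7.58 ± 0.05 (SD, n = 3), and the groups did not overlap. For the large subunit the mean was 7.54 ± 0.02 (SD, n = 3) in duplication and 7.65 ± 0.05 (SD, n = 3) in wild-type mice, and for the small subunit 7.37 ± 0.01 (SD, n = 3) and 7.47 ± 0.05 (SD, n = 3). Relative to the wild-type mean of the large subunit, duplication mice 1, 2 and 3 stood at -0.13, -0.11 and -0.09 and wild-type mice at -0.03, 0.05 and -0.02. The small subunit gave -0.11, -0.10 and -0.10 in duplication mice and -0.03, 0.06 and -0.03 in wild-type mice. Wild-type mouse 2 was thus the highest for both subunits. Over the 7104 genes at the floor or more the same quantity was -0.01, -0.04 and -0.01 in duplication mice and -0.01, 0.03 and -0.02 in wild-type mice. Over these genes duplication mouse 2 was the lowest and wild-type mouse 2 the highest.

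The lowest of the 6 values belonged to a duplication mouse in 71 of the 75 members, or 94.7%, against 63.7% of genes at the floor or more. Duplication mice 1, 2 and 3 were the lowest in 28, 24 and 19 members, and wild-type mice 1, 2 and 3 in 1, 1 and 2. No single duplication mouse held most of the lowest values. The highest value was that of wild-type mouse 2 in 44 members, of wild-type mouse 3 in 12 and of wild-type mouse 1 in 10. Members varied little among mice of 1 genotype, with a median SD of 0.09 in duplication and 0.07 in wild-type mice, against 0.14 and 0.11 over genes at the floor or more.

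**Figure D2:**
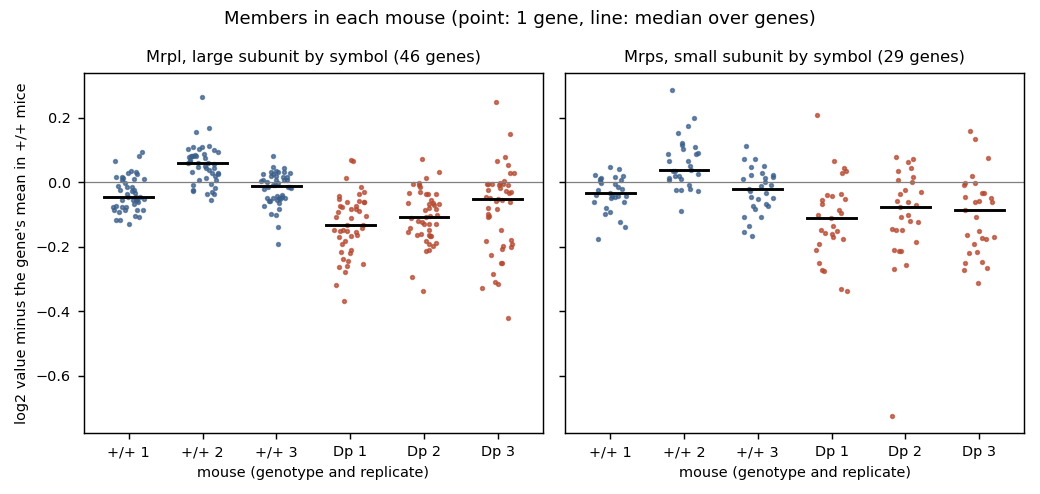
Each member in each mouse as its log2 value minus the gene's mean in wild-type mice, for Mrpl genes (left) and Mrps genes (right), with 1 point per gene and a line at the median over genes; +/+ is wild type and Dp is duplication. Medians lie below 0 in all 3 duplication mice and above 0 in wild-type mouse 2, and the point far below the rest is Mrps6 in duplication mouse 2.

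Among large subunit proteins around the exit of the peptide tunnel, the 2 members of smallest p in the whole family were found. Mrpl17, a relative of bacterial L17, had log2 values of 8.06, 8.06 and 7.96 in duplication mice and 8.26, 8.28 and 8.27 in wild-type mice. Its wild-type values lay within 0.03 of each other and all 3 duplication values were below them. The log2 fold change of Mrpl17 was -0.24 (SE 0.08, unadjusted p = 0.014). Mrpl22, the relative of a protein that lines the tunnel, had values of 8.19, 8.11 and 8.25 in duplication and 8.42, 8.52 and 8.4 in wild-type mice. Groups did not overlap, and its log2 fold change of -0.26 (SE 0.08, unadjusted p = 0.015) was the most negative of the 75. Mrpl32, a zinc-binding protein that is matured by the mitochondrial m-AAA protease, had values of 7.41, 7.66 and 7.41 in duplication and 7.74, 7.82 and 7.63 in wild-type mice. Duplication mouse 2 lay above wild-type mouse 3, so the groups overlapped, and the log2 fold change was -0.23 (SE 0.10, unadjusted p = 0.057). Mrpl23, Mrpl24 and Mrpl47, further proteins of the tunnel exit, had log2 fold changes of -0.14, -0.04 and -0.16. Mrpl45, which holds the ribosome at the inner membrane near the exit, stood at -0.03 with an SE of 0.10.

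Proteins of the large subunit's stalks and core followed with smaller or less even differences. Mrpl1, of the stalk by which used transfer RNA leaves, had values of 5.21, 5.20 and 5.16 in duplication and 5.45, 5.36 and 5.33 in wild-type mice, without overlap, for a log2 fold change of -0.19 (SE 0.08, unadjusted p = 0.039). It lies below the floor of 6. Mrpl13, whose bacterial relative joins the subunit early in assembly, had values of 8.11, 8.24 and 8.19 in duplication and 8.32, 8.39 and 8.41 in wild-type mice. No duplication value reached the lowest wild-type value, and the log2 fold change was -0.19 (SE 0.08, unadjusted p = 0.047). Mrpl14, which lies at the face between the subunits, had values of 6.09, 6.16 and 6.12 in duplication and 6.21, 6.41 and 6.36 in wild-type mice. Its log2 fold change was -0.20 (SE 0.09, unadjusted p = 0.048), again without overlap. The stalk that recruits translation factors was uneven. Mrpl10, at its base, had a log2 fold change of -0.14 with no overlap of groups, whereas Mrpl12, the stalk protein itself, had values of 8.39, 8.39 and 8.62 in duplication and 8.46, 8.55 and 8.4 in wild-type mice. Duplication mouse 3 was the highest of all for Mrpl12, and its log2 fold change was -0.0017 (SE 0.10). Mrpl27, near the site where amino acids are joined, stood at -0.05.

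Mitochondrion-specific proteins of the large subunit were all on the lower side, 18 of 18, with a median of -0.11. Mrpl44, a protein with a ribonuclease-III-like fold, had log2 values of 8.15, 8.14 and 8.06 in duplication and 8.22, 8.38 and 8.33 in wild-type mice. Groups did not overlap, and the log2 fold change was -0.19 (SE 0.08, unadjusted p = 0.055). Mrpl50 had values of 6.08, 6.24 and 5.88 in duplication and 6.25, 6.41 and 6.24 in wild-type mice, where duplication mouse 2 exceeded wild-type mouse 3 by under 0.01. Its log2 fold change was -0.23 (SE 0.11, unadjusted p = 0.081). Mrpl38 stood at -0.19 (SE 0.10), with duplication mouse 2 above wild-type mouse 1 by under 0.01. Mrpl41 was at -0.08 and Mrpl58, a peptidyl-tRNA hydrolase built into the ribosome, at -0.05. The remaining members of this class, from Mrpl37 to Mrpl57, lay between -0.13 for Mrpl40 and -0.03 for Mrpl48. With 1 mouse left out at a time, Mrpl50 ranged from -0.32 to -0.14, Mrpl38 from -0.24 to -0.11 and Mrpl58 from -0.08 to -0.0032.

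Small subunit members were also mostly lower, with 4 at an unadjusted p under 0.05. Mrps18b, which is 1 of 3 copies related to bacterial S18, had log2 values of 6.72, 6.61 and 6.68 in duplication and 6.84, 6.90 and 6.89 in wild-type mice. All duplication values were lower, and the log2 fold change was -0.21 (SE 0.08, unadjusted p = 0.029). Mrps18c, another copy, had values of 7.73, 7.77 and 7.70 in duplication and 7.92, 7.96 and 7.87 in wild-type mice. It also showed no overlap, with a log2 fold change of -0.19 (SE 0.07, unadjusted p = 0.041). The last copy, Mrps18a, which sits in the large subunit despite its symbol, had values of 8.60, 8.50 and 8.64 in duplication and 8.61, 8.78 and 8.68 in wild-type mice. Its groups overlapped and its log2 fold change was -0.11 (SE 0.09).

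Mrps16 and Mrps22, in which inherited variants in humans cause combined deficiency of the respiratory chain, were among the most negative members. Mrps16 had log2 values of 7.96, 8.0 and 7.94 in duplication and 8.07, 8.23 and 8.32 in wild-type mice, with the wider spread in wild type. Its log2 fold change was -0.24 (SE 0.09, unadjusted p = 0.03). Mrps22 had values of 7.01, 7.19 and 7.07 in duplication and 7.30, 7.45 and 7.26 in wild-type mice, for a log2 fold change of -0.25 (SE 0.09, unadjusted p = 0.031). Neither gene had overlapping groups. Mrps14 had values of 8.83, 8.87 and 8.66 in duplication and 8.95, 8.95 and 9.02 in wild-type mice, also without overlap, for a log2 fold change of -0.19 (SE 0.09, unadjusted p = 0.066). Mrps23 stood at -0.15 with no overlap, and Mrps28 at -0.18 with duplication mouse 2 above wild-type mouse 3. Mrps6 had the most negative fold change of the subunit, -0.25, but also the largest error of all members (SE 0.20). Its values were 7.93, 7.13 and 7.77 in duplication and 7.80, 7.90 and 7.88 in wild-type mice, so that duplication mouse 1 was the highest of all 6 and duplication mouse 2 was the one far below the others.

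**Figure D3:**
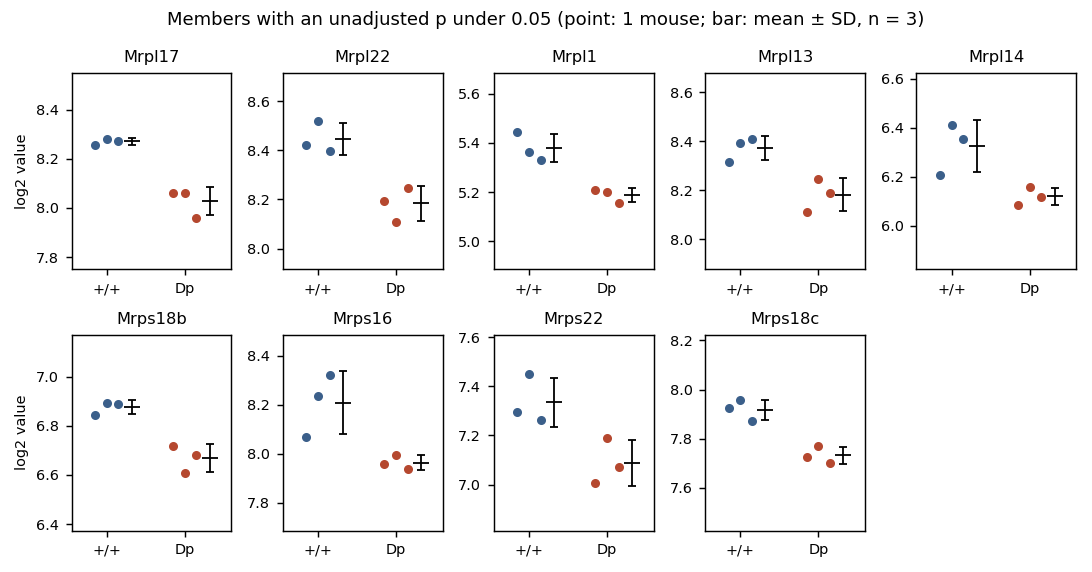
Log2 values of the 9 members with an unadjusted p under 0.05, 1 point per mouse, with mean ± SD (n = 3) beside each group; +/+ is wild type and Dp is duplication, and each vertical axis spans the same width on the log2 scale. In each of the 9 panels the 3 duplication points lie below the 3 wild-type points.

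Mrps12, Mrps5 and Mrps2, proteins near the decoding site and the path of the messenger RNA, were lower in the probe sets used, with unadjusted p-values above 0.05. They do not stand for every protein of that region. The fold change on the log2 scale was -0.08 (SE 0.11) for Mrps12, at the decoding site, -0.14 (SE 0.11) for Mrps5 and -0.13 (SE 0.09) for Mrps2, and only Mrps2 among them had groups that did not overlap. Mrps7 stood at -0.07 without overlap, and Mrps34 and Mrps27 at -0.11 and -0.09 with overlap. Mrps30, which like Mrps18a is part of the large subunit by structure, stood at -0.10, and Mrps36, which is a component of the 2-oxoglutarate dehydrogenase complex, at -0.13. Leaving out 1 mouse at a time moved these values, to between -0.17 and -0.01 for Mrps12, -0.21 and -0.07 for Mrps5, -0.18 and -0.07 for Mrps2, and -0.19 and -0.04 for Mrps34. For Mrps27 the range was -0.12 to -0.04, for Mrps30 -0.17 to -0.06 and for Mrps36 -0.20 to -0.03. With Mrps18a and Mrps30 counted as large and Mrps36 left out, 46 of 48 large and 23 of 26 small members were lower, with medians of -0.11 and -0.10.

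The 5 members that were higher in duplication mice differed by less than their error. Mrps24, a relative of bacterial S3, had log2 values of 8.32, 8.08 and 8.25 in duplication and 8.09, 8.29 and 7.96 in wild-type mice, for a log2 fold change of 0.10 (SE 0.11). A second probe set of Mrps24 of similar brightness stood at -0.03. Mrps15 stood at 0.07 (SE 0.13) and Mrpl34 at 0.03 (SE 0.12). Mrpl33 and Mrps11 stood at 0.0098 and 0.0087. None of the 5 had groups that did not overlap.

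Members with relatives in bacteria and members known only from mitochondria were each mostly lower. Of 46 bacterial relatives 41 were lower, with a median of -0.11, and of 28 mitochondrion-specific members 28 were lower, with a median of -0.10. Groups did not overlap in 15 of the former and 5 of the latter. All 5 members that were higher, Mrps24, Mrps15, Mrpl34, Mrpl33 and Mrps11, are bacterial relatives. The difference between the classes was not tested.

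The members lie on 17 chromosomes, and 10 of them on chromosome 11, which carries the duplicated segment. None of these 10 is among the genes listed for the segment. They were Mrps24, Mrpl22, Mrps23, Mrpl27, Mrpl10, Mrpl45, Mrps7, Mrpl38, Mrpl12 and Mrpl58. Of the 10, 9 were lower, with a median of -0.06, and of the 65 on other chromosomes 61 were lower, with a median of -0.11. Mrpl22 and Mrps24, the ends of the whole family's range at -0.26 and 0.10, are both on chromosome 11.

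Further probe sets of the same genes were compared, since all but 33 of the members had more than 1. Over the 155 probe sets of the members, 89 of the 95 at the floor or more were lower, with a median of -0.10, and 35 of the 60 dimmer ones, with a median of -0.04. In 19 members with at least 2 probe sets at the floor or more, all were lower in 15, the signs were mixed in 4, and in 0 were all higher. Probe sets of 1 gene share the RNA of the same mice and are not replicates. Opposite signs in which 1 probe set had an unadjusted p under 0.05 occurred in Mrpl1, Mrpl13 and Mrps5. In Mrpl1 the second probe set, at -0.28, had the same sign as the first and another, dim set stood at 0.05. In Mrpl13 the set of opposite sign, at 0.17, had a mean log2 value of 2.53. In Mrps5 the set used stood at -0.14, a second at the floor at -0.24 and a dimmer one at 0.08.

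Promoter windows, from 250 bases before to 50 after each annotated start, were found in the RefSeq table for 66 of the 75 members by gene identifier. The NRF1 core GCGCATGCG was in 7 of the 66, or 10.6%, against 3.1% of 14368 measured genes, 4.78% of 5797 genes at the floor or more and 1.95% of all 27025 genes with a window, searched on both strands. The ETS core CCGGAAG was in 25, or 37.9%, against 15.03%, 20.8% and 9.93%. AAGATGGCG, the core bound by YY1, another factor known from promoters of mitochondrial genes, was in 8, or 12.1%, against 2.54%, 4.23% and 1.64%. Any of these 3 was in 35 members, or 53.0%, against 19.3% of measured genes and 27.5% of genes at the floor or more. By contrast GGGCGG, the core bound by Sp1, was in 33 of the 66 members, 57.5% of measured genes and 73.1% of genes at the floor or more. The E-box CACGTG was in 7.58% of members against 10.3% of measured genes, and the cyclic AMP response element TGACGTCA in 3.03% against 2.94%. The letters of these motifs do not contain each other. The windows of members, of measured genes and of genes at the floor or more had median GC contents of 58.5%, 58.3% and 62.0%.

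Fold changes of members were set beside these matches as a description, without a test. The 7 members with the NRF1 core were Mrpl9, Mrpl10, Mrpl17, Mrpl22, Mrpl32, Mrpl39 and Mrps18b, all lower, with a median of -0.21, against -0.10 over the 59 without it. They range from -0.07 for Mrpl39 to -0.26 for Mrpl22, and 6 of the 7 are large subunit genes. For the ETS core the order was the other way, with -0.08 over the 25 members with it and -0.11 over the 41 without. YY1 gave -0.10 with the core and -0.11 without. Of the factors themselves, the gene Nrf1 stood at -0.06 (SE 0.08), Gabpa, which encodes the DNA-binding part of GABP, at -0.04 (SE 0.13) and Yy1 at -0.0088 (SE 0.09), with overlapping groups in all 3.

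Many members share a start region with a gene on the opposite strand. Starts of another gene within 1000 bases, transcribed away from the member's own, were found for 24 of the 66 members with a window, or 36.4%. The share was 16.2% of measured genes and 19.8% of genes at the floor or more. Of 22 measured partners that are no member, 16 were lower in duplication mice, with a median of -0.07, and of the 8 at the floor or more 6 were lower, with a median of -0.05. Mrpl46 and Mrps11, whose starts are 42 bases apart, had log2 fold changes of -0.11 and 0.0087. Mrpl14, at -0.20, lies 131 bases from Tmem63b, at 0.21 (SE 0.10), and Mrpl32, at -0.23, lies 205 bases from the proteasome gene Psma2, at -0.11 (SE 0.08). Mrpl47 and Ndufb5, a gene of respiratory complex I, stood at -0.16 and -0.11. The members with and without such a partner both had medians of -0.11.

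Other genes of the same pathway were described by lists. The list of mitochondrial ribosomal proteins with other names held 6 symbols, of which Ict1 is an older name of the member Mrpl58 and Aurkaip1 had no probe set of 1 symbol. The other 4 were measured, and all 4 were lower, with a median of -0.15. Dap3, a small subunit protein that binds GTP, had log2 values of 8.78, 8.92 and 8.84 in duplication and 8.94, 9.09 and 9.07 in wild-type mice, for a log2 fold change of -0.19 (SE 0.09). Chchd1 had values of 7.59, 7.72 and 7.74 in duplication and 7.92, 7.87 and 7.82 in wild-type mice, for -0.19 (SE 0.08). Neither of these 2 had overlapping groups. Gadd45gip1 and Ptcd3, of the large and small subunit, stood at -0.12 and -0.04, and none of the 4 had an unadjusted p under 0.05.

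Mitochondrial translation factors were mixed, with 9 of 16 lower and a median of -0.04. Mrrf, the ribosome recycling factor, stood at -0.23 (SE 0.09) and the initiation factor Mtif3 at -0.21 (SE 0.09). Both had an unadjusted p under 0.05 in the lower direction. The elongation factor Guf1 stood at 0.30 (SE 0.10) with such a p in the higher direction. Mtif3 and Guf1 lie below the floor, which 9 of the 16 reached. At the floor or more, Mrrf, Lrpprc, Tsfm, Slirp, Gfm1 and Pdf were lower, at -0.23, -0.18, -0.16, -0.15, -0.09 and -0.04. Mtif2, Tufm and Letm1 were higher, at 0.08, 0.04 and 0.02. Of 26 assembly factors of the mitochondrial ribosome 18 were lower, with a median of -0.03, near the median of -0.02 over all genes. Only 10 of the 26 reached the floor, against 72 of the 75 members, so these medians do not compare genes of like brightness. Among the assembly factors at the floor or more, only Mpv17l2 was higher, at 0.05. The others there ran from -0.17 for Mtg1 to -0.01 for Mterf3. Rpusd4, a pseudouridine synthase that acts on the large ribosomal RNA, had values of 4.84, 5.02 and 4.86 in duplication and 5.15, 5.33 and 5.31 in wild-type mice, for a log2 fold change of -0.36 (SE 0.09, unadjusted p = 0.006). It was the only assembly factor with an unadjusted p under 0.05, and lies below the floor. Mrm3, a methyltransferase of the same RNA, and Rpusd3 stood at -0.17 and -0.27, both also below the floor.

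Further lists had medians between -0.03 and 0. The list of mitochondrial aminoacyl-tRNA synthetases had 13 of 21 lower and a median of -0.03, with Gars at -0.14, Ears2 at 0.14 and Mars2 at 0.11. It also held genes that do not encode a synthetase of the mitochondrion alone, namely Gars, Kars, Qrsl1, Gatb and Gatc. Genes of mitochondrial transcription and the nucleoid had 6 of 12 lower and a median of -0.02, with Polg at 0.15, Tfam at -0.13 and Tefm at -0.11. Regulators of mitochondrial biogenesis had 7 of 11 lower and a median of -0.0088, with Pprc1 at -0.12, Mycn at -0.14 and Ppargc1b at 0.17. In these 3 lists 0 genes had an unadjusted p under 0.05 and 0 had groups that did not overlap. The floor was reached by 7 of 21, 7 of 12 and 3 of 11 of their genes. Ears2, Mars2, Tefm, Pprc1 and Mycn lie below it. Cytosolic ribosomal proteins, the counterpart outside the mitochondrion, had 24 of 46 lower, a median of -0.0033 and 0 genes without overlap, with Rpl27a at 0.22, Rps6 at -0.18 and Rpl39l at -0.16. Of these cytosolic genes 39 of 46 reached the floor, and Rpl39l lies below it. The mean over the cytosolic list was lowest in duplication mouse 3, at -0.11 from the wild-type mean. It was highest in duplication mouse 1, at 0.06, so that the groups overlapped.

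**Figure D4:**
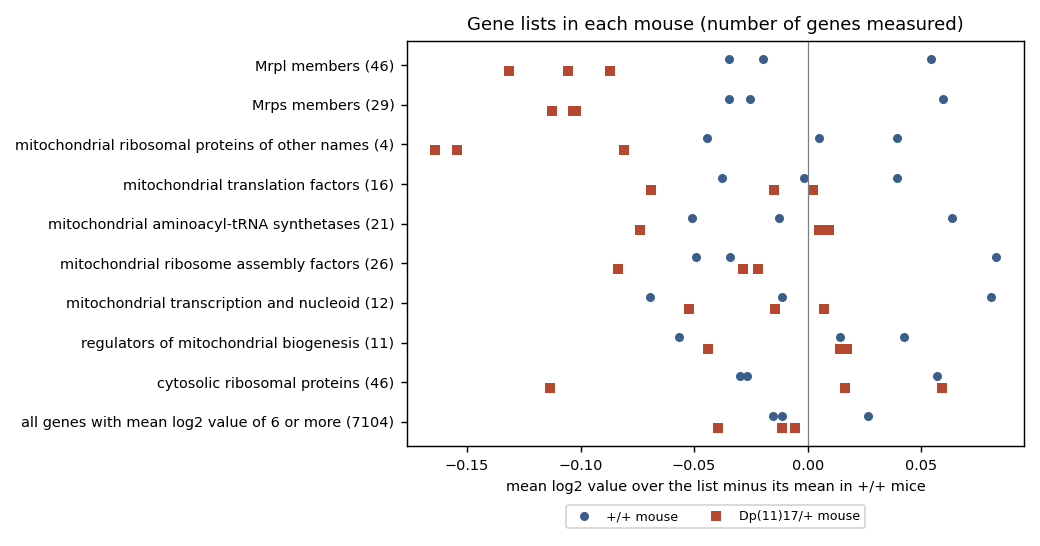
Mean log2 value over each gene list in each mouse minus the list's mean in wild-type mice; circles are wild-type mice, squares duplication mice, and the number of genes measured is in brackets. The 3 upper rows, which are the mitochondrial ribosomal proteins, are the ones in which all squares lie to the left of all circles.

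**Figure D5:**
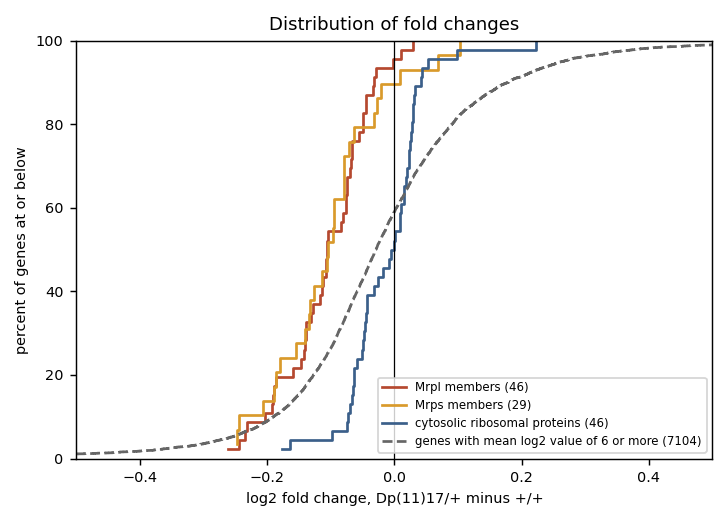
Cumulative distribution of log2 fold changes, duplication minus wild type, as the percent of genes at or below each value, for Mrpl members, Mrps members, cytosolic ribosomal proteins and all genes averaging at least 6 on the log2 scale; the axis is cut at -0.5 and 0.5. The curves of members have 44 of 46 Mrpl genes and 26 of 29 Mrps genes to the left of 0, and that of cytosolic ribosomal proteins 24 of 46.

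The common direction was measured again with single mice left out, first those that stand apart. Without duplication mouse 1, whose Xist value opposes its label, 68 of 75 members were lower, with a median of -0.09, and without duplication mouse 3, with its markers of other regions, 70 were lower, with a median of -0.11. Duplication mouse 2 as the only duplication mouse, against the 3 wild-type mice, gave 64 of 75 lower and a median of -0.10, as an effect size without a test. The median over genes at the floor or more was -0.03, -0.03 and -0.04 in these 3 fits. Wild-type mouse 2, the highest in 44 members, mattered most for the count, and without it 64 members were lower, with a median of -0.09. Without duplication mouse 2, 66 members were lower. The median was then -0.085, the smallest change among the fits with 1 mouse left out. At an unadjusted p under 0.05, the 9 members became 3 without duplication mouse 1, 1 without duplication mouse 3 and 1 without wild-type mouse 2. Under quantile normalization again and under centring on array medians 71 members were lower, and under cyclic loess 68, with a median of -0.08 against -0.0068 over genes at the floor or more.

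Marker lists of other cell types were given values beside the members. All 6 microglial markers were higher in duplication mice, with a median of 0.20 and list means of 0.43, 0.11 and 0.06 from the wild-type mean in duplication mice 1, 2 and 3. Wild-type mice stood at 0.0018, 0.14 and -0.14, so that 1 of them exceeded 2 of the duplication mice. For oligodendrocytes 6 of 7 markers were higher, with list means of -0.10, 0.21 and 0.49 in duplication and 0.37, -0.21 and -0.16 in wild-type mice, and for astrocytes 5 of 6, with 0.13, 0.16 and -0.09 against 0.02, 0.03 and -0.05. For choroid plexus 7 of 8 markers were higher, with list means of 1.01, -0.86 and 1.25 in duplication mice 1, 2 and 3. Wild-type mice 1, 2 and 3 stood at 2.05, -1.04 and -1.001, so that wild-type mouse 1 was the highest of all. All 12 striatal and 11 of 12 thalamic markers were higher, and all 9 pyramidal and 7 of 8 dentate markers lower, over the group as a whole. For RNA quality, 3' probe sets of actin exceeded 5' ones by 1.47 to 1.74 in duplication and 1.45 to 1.64 in wild-type mice. The part of cell composition and of RNA quality in the lower values of the members was not tested.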

How the data were processed

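The deposited values are log2 signals of 1 probe set each, made by the authors with RMA, per the submitters' processing notes (background correction, quantile normalization over arrays and summary over probes). The RMA version was not given in the sources used here. Precision is limited by the number of arrays, which yield signals and no counts. The 6 arrays were used as deposited, with values from 2.14 to 13.09 and array medians of 3.74 to 3.79. After removal of 64 control probe sets, 45037 were tested in limma 3.58.1 (R 4.3.3, lmFit and eBayes without trend or covariate, two-sided, 7.11 degrees of freedom) with Benjamini-Hochberg adjustment over all of them. The fit was tested on simulated data. Symbols came from the platform annotation, 34945 probe sets having 1, 932 several and 9160 none. The gene table of GRCm38.p6 gave names and chromosomes, and all 75 members were found in it. A gene was measured by its probe set with 1 symbol and the highest mean.

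Replicates are numbered in accession order. The labels name separate individuals. P-values set the difference between the groups against the spread among mice of the same genotype, moderated by eBayes over all probe sets.

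The members and lists were chosen with earlier results of these data known. Named were, in each subunit, the 8 members of smallest unadjusted p, the 2 with the highest and the 2 with the lowest mean, members past the adjusted threshold, members on chromosome 11, members whose probe sets differ in sign where 1 has an unadjusted p under 0.05, and 14 members fixed by name for their role. In other lists the 3 of smallest p were named. Members named outside this rule, and the descriptions by shared start region and by motif groups were chosen after values were seen. Alternatives were 3 other scalings, 2 filters on dim probe sets, array weights, an intensity trend with a robust prior, the unmoderated statistic, other choices of probe set and of members, and each mouse left out.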

Additional observations from a re-analysis of the deposited data

How the results depend on the processing

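In every fit run, 0 members passed an adjusted p of 0.05 or of 0.1 with limma, and the counts and medians by which the members were lower kept their direction under all alternatives. No paired analysis was possible because replicate numbers were given in accession order and pair no mice. The count of 9 members with an unadjusted p under 0.05 was 5 with probe sets of a mean of 4 or more, 3 with an intensity trend and robust prior, 14 with the plain equal-variance statistic, and 1 to 8 with single mice left out. The 20 members without overlap of groups became 23 to 34 with a mouse left out, which by construction leaves fewer values to overlap. The large minus small difference of medians, -0.0013, ranged from -0.0133 to 0.027 with a mouse left out and was -0.0278 with duplication mouse 2 as the only duplication mouse. Signs of members near 0 were not all stable. Those of Mrpl34, Mrps15 and Mrps11, named outside the rule given above, turned with 1 mouse left out. Among the members named by that rule, signs turned in 3. Mrpl12 was 0.023 under cyclic loess and -0.0771 to 0.0399 with a mouse left out, Mrpl33 was -0.0129 under quantile normalization again and -0.0177 to 0.0297 with a mouse left out, and Mrpl45 was -0.0806 to 0.0459 with a mouse left out. The cause was not tested. With 3 mice in each group, the median difference of a member was near the median standard error.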
